A study of Homo sapiens with 4 samples.

Results

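Transcript levels of 10 target genes of the coactivator YAP and its TEAD partners were read by RNA-seq in 4 libraries of the human melanoma line A375, in which BRAF carries an activating mutation. The genes are CCN1, CCN2, ANKRD1, AMOTL1, AMOTL2, AJUBA, LATS2, CRIM1, F3 and FJX1. They were listed by name, with earlier results of these data known, and are 10 of the 62649 genes in the count tables. All 10 had enough reads to be tested, among 24961 tested genes. The resistant group (2 libraries) was A375 cultured with vemurafenib, an inhibitor of the mutant kinase, at concentrations doubled each week from 0.1 to 6.4 µM. The control group (2 libraries) was the parental A375 line. Both groups grew in the same serum-containing medium and share the line's BRAF mutation. The labels do not say whether the resistant cells are 1 clone, whether vemurafenib was present at harvest, or whether the libraries of a group came from separate cultures. The general protocol speaks of harvest after drug treatment, but no label names a further drug for these libraries. The p-values below therefore reflect library-to-library spread alone, part of which may be technical.

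In the Hippo pathway, the kinases STK3 and STK4 activate LATS1 and LATS2, which phosphorylate YAP and its relative TAZ and hold them outside the nucleus. Unphosphorylated YAP and TAZ enter the nucleus and bind TEAD factors, which recognise a short DNA element with the letters GGAATG. Several of their target genes encode inhibitors of YAP itself, and the level of the targets is widely read as a measure of YAP and TAZ activity. In melanoma cells, YAP and TEAD activity has been linked to invasive, dedifferentiated states and to tolerance of BRAF inhibitors.

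The promoters are shown for their matches to the TEAD element. Whether these matches relate to RNA level was not tested. RefSeq promoter windows (GRCh38.p14, 250 bases before to 50 bases after an annotated start) were found for 8 of the 10 genes, all but CCN1 and CRIM1. These made 10 windows, since AMOTL2 and AJUBA each have a pair of starts. Both strands were searched for GGAATG, which reads CATTCC on the other strand. A match was present in 5 of the 10 windows, each of a different gene, whereas 14% of all 35116 windows of this length held one. CCN2 had 3 matches, starting 169, 104 and 95 bases before its start, and 0.128% of all windows held at least 3. The nearest pair in CCN2 began 9 bases apart. ANKRD1 had 2 matches, at 220 and 128 bases before its start, and 1.37% of all windows held at least 2. The genes were listed as known YAP and TEAD targets. The cut-offs of 3 and 2 matches were the counts found in CCN2 and ANKRD1. These shares therefore describe the windows and are not a test. The second, downstream start of AJUBA had 1 match, 59 bases before it. In the windows below, written 5′ to 3′ on the gene's strand (minus for all 3 genes), capitals mark the matches.
CCN2, chr6:131951323-131951622: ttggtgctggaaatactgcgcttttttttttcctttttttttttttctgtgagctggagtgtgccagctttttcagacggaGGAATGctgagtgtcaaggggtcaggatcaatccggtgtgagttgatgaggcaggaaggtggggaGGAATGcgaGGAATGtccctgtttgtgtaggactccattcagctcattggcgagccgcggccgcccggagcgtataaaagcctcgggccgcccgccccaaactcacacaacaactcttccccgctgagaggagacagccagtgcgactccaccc
ANKRD1, chr10:90921038-90921337: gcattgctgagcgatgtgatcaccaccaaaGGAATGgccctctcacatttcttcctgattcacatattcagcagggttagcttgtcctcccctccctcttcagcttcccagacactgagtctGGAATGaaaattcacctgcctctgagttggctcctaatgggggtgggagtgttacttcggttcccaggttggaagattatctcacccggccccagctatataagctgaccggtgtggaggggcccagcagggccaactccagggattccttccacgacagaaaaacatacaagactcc
AJUBA second start, chr14:22976793-22977092: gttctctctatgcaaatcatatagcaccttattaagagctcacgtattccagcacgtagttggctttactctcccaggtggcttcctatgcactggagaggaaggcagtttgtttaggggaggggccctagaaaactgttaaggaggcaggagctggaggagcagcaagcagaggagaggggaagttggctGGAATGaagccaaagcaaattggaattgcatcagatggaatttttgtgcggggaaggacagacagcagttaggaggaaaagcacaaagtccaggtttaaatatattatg

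A single match stood in each of AMOTL2 and LATS2. In AMOTL2 it lay 69 bases before its second start, on the opposite strand, and in LATS2 it began at base 10 of the transcript. The 30 bases around each, again in the direction of the gene with the match in capitals, were as follows.
AMOTL2, chr3:134374499-134374528: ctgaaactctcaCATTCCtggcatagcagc
LATS2, chr13:21061560-21061589: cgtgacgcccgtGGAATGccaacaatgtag
The windows of AMOTL1, F3 and FJX1 held no match, which says only that these letters are not within those 300 bases.

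Counts assigned to genes totalled between 68022689 and 87178097 per library. In control replicate 1 every gene's count was even, so its independent depth may be smaller than its total of 72290468. Halved, it totalled 36145234, and 63.9% of its halved counts from 1 to 10 were even. Unhalved, the share was 62.1% in control replicate 2 and 64.5% and 63.3% in resistant replicates 1 and 2. The cause was not tested. Counts were scaled with TMM factors and are given as CPM, the count of a gene per 1000000 counts of the library. The melanocyte lineage gene SOX10 stood between 704 and 1149 CPM in the 4 libraries, whereas the pigment genes TYR and DCT were at most 0.28 CPM in each. The 10 melanocyte lineage markers did not move together. CSPG4 had 1791 and 1636 CPM in resistant cells against 470 and 1121 CPM in controls. It carried most of the difference in their sum (3232 and 2938 CPM in resistant cells against 1556 and 2772 CPM in controls). MITF had 12.3 and 23.4 CPM in resistant cells against 42.2 and 22.8 CPM in controls. MITF lies on chromosome 3 between 0 and 100 Mb. In that segment 279 of 287 genes averaging at least 10 CPM had a negative fold change (median log2 -0.61). Whether the level of MITF follows that segment was not tested. Summed markers of immune cells reached at most 1.77 CPM, of endothelial cells 3.47 CPM, of fibroblasts 14.9 CPM and of keratinocytes 89.5 CPM in any library. KRT10 made up 89.1 CPM of that keratinocyte sum, and KRT5, KRT14 and KRT1 were at most 2.08 CPM in each library. Across genes, control replicate 2 correlated with the resistant replicates 1 and 2 at Pearson's r of 0.959 and 0.966, against 0.916 and 0.923 for control replicate 1 (10089 genes averaging at least 10 CPM; genes are not independent replicates). The controls correlated with each other at 0.962, and the resistant libraries at 0.978. Control replicate 2 was thus about as close to the resistant libraries as to control replicate 1. In bulk RNA, a change in every cell and a change in the share of cells that express a gene cannot be told apart.

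No target gene passed the test between resistant and control cells (0 of 10 at a Benjamini-Hochberg adjusted p under 0.05, edgeR quasi-likelihood test), where 1.09% of all tested genes did (0.513% lower and 0.577% higher). F3 and AJUBA had the lowest fold changes and the only unadjusted p-values under 0.05, which 13.5% of all tested genes had. DESeq2 called both lower (2 of 10), where it called 2.59% of genes lower. The fitted fold change was negative for 8 of the 10 genes, with a median of -0.30 on the log2 scale, beside 49.5% of all tested genes and a median of 0.01. The median of the 10 was 0.04 once resistant replicate 1 was left out and -0.79 once resistant replicate 2 was. Resistant and control libraries did not overlap for F3, AJUBA and FJX1, each lower in resistant cells. Of all tested genes, 44.6% did not overlap, 22.2% lower and 22.4% higher in resistant cells. Resistant replicate 1 was below both controls for 8 of the 10 genes, where 35.2% of all tested genes and 42.3% of those averaging at least 10 CPM were. Resistant replicate 2 was below both controls for 3 of the 10, beside 35.5% and 34% of genes, and between the controls for 6 of the 10, beside 29.1% and 25.6%.

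**Figure D1:**
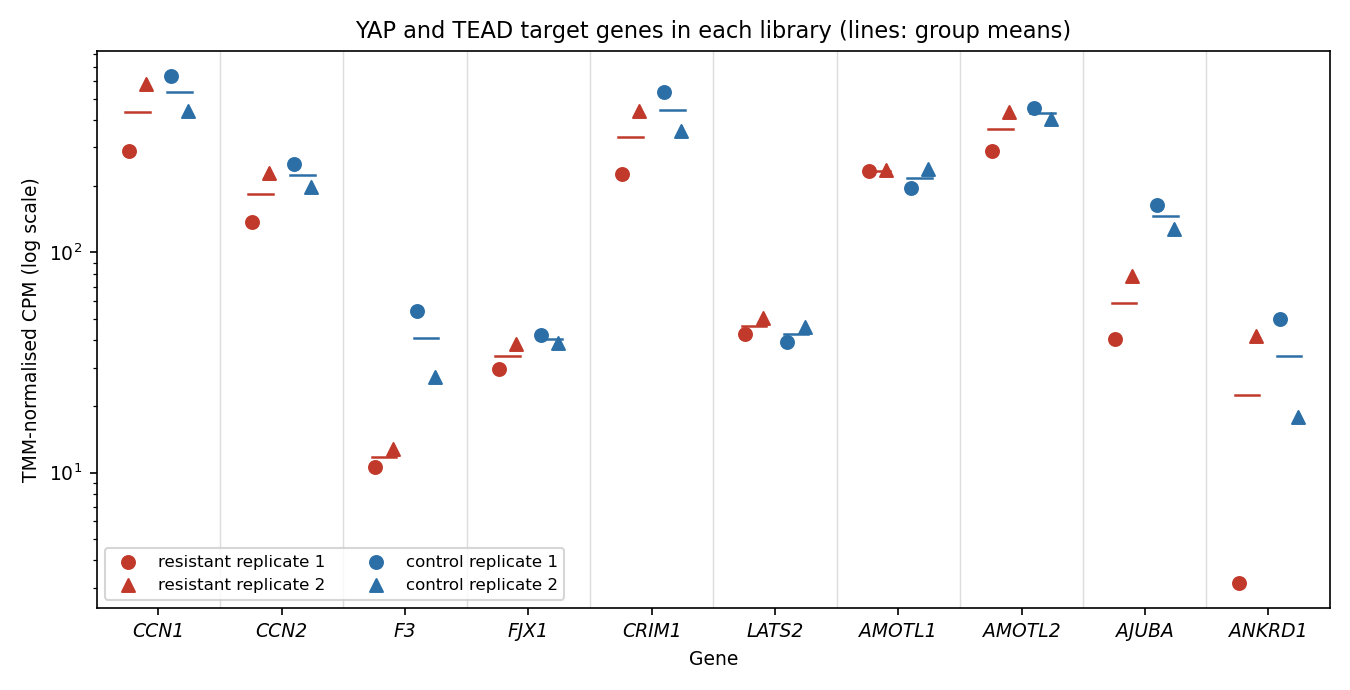
TMM-normalised CPM on a log axis for the 10 target genes, with resistant libraries in red to the left of control libraries in blue, circles for replicate 1, triangles for replicate 2 and lines for group means. F3 and AJUBA are lower in both resistant libraries, whereas resistant replicate 1 is the lowest library for CCN1, CCN2, CRIM1, AMOTL2, FJX1 and ANKRD1.

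CCN1 and CCN2 encode secreted matrix-associated proteins that bind integrins, and are the most used readouts of YAP activity. CCN1 (ENSG00000142871.18, chromosome 1, 85580761 to 85584589, GRCh38) had 291 and 580 CPM in resistant replicates 1 and 2, against 633 and 438 CPM in control replicates 1 and 2. Resistant replicate 2 lay between the controls, and resistant replicate 1 lay below both. The fitted log2 fold change was -0.30 ± 0.33 (SE, n = 2 per group; edgeR adjusted p = 0.776), with a 95% interval from -1.07 to 0.47, so that neither a 2-fold decrease nor a modest increase lies outside it. CCN2 (ENSG00000118523.6, chromosome 6, 131948176 to 131951372) showed the same order of libraries, with 138 and 230 CPM in resistant cells against 252 and 198 CPM in controls. Its log2 fold change was -0.29 ± 0.26 (SE; adjusted p = 0.716; interval -0.90 to 0.32). With resistant replicate 1 left out these values became 0.12 for CCN1 and 0.04 for CCN2. With resistant replicate 2 left out they became -0.88 for CCN1 and -0.71 for CCN2. Of the exonic bases of CCN2, 11.9% are shared with LINC01013 on the opposite strand, and reads there were left uncounted.

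F3 encodes tissue factor, the membrane receptor that starts blood coagulation. Its level was 10.6 and 12.9 CPM in resistant replicates 1 and 2, against 54.5 and 27.1 CPM in control replicates 1 and 2. Both resistant libraries were below both controls, and the spread was wider between the controls (2.01-fold) than between the resistant libraries (1.21-fold). F3 (ENSG00000117525.14, chromosome 1, 94529173 to 94541759) had a log2 fold change of -1.80 ± 0.32 (SE, n = 2 per group), 3.47-fold lower in resistant cells, and just missed the threshold (edgeR adjusted p = 0.0525, unadjusted p = 6.37e-04). The 95% interval ran from -2.55 to -1.04. In DESeq2, F3 fell (log2 -1.78, adjusted p = 1.96e-06). With all libraries kept, F3 passed edgeR with RLE scaling (adjusted p = 0.04996) and with control replicate 1 halved (adjusted p = 0.0442). It also passed with no filter on low counts. It did not pass edgeR with library totals alone (adjusted p = 0.0508) or a filter at a mean of 1 CPM (adjusted p = 0.0596). Nor did it pass with the replicate number as a further term (edgeR adjusted p = 0.102). With control replicate 1 left out the value was -1.21, with control replicate 2 left out it was -2.21, and F3 passed the edgeR test in both of those fits, in which 829 and 2166 genes passed in all, against 272 with all libraries. F3 did not pass with resistant replicate 1 left out (edgeR adjusted p = 0.095) or with resistant replicate 2 left out (edgeR adjusted p = 0.199).

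FJX1 is the human relative of the Drosophila gene four-jointed, whose product is a Golgi kinase for the cadherins Fat and Dachsous. It had 29.5 and 38.3 CPM in resistant cells and 42.3 and 38.9 CPM in controls. The groups did not overlap, but resistant replicate 2 lay 0.02 log2 units below control replicate 2 (log2 ratio -0.02). The fitted log2 fold change was -0.26 ± 0.19 (SE; adjusted p = 0.638; interval -0.71 to 0.19). CRIM1, which encodes a membrane protein with cysteine-rich repeats that binds bone morphogenetic proteins, had 226 and 441 CPM in resistant cells against 536 and 357 CPM in controls. As for CCN1 and CCN2, resistant replicate 2 lay between the controls and resistant replicate 1 below both. CRIM1 had a log2 fold change of -0.42 ± 0.33 (SE; adjusted p = 0.663; interval -1.19 to 0.35), which was -0.01 with resistant replicate 1 left out and -0.98 with resistant replicate 2 left out.

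Among the genes that feed back on the pathway, AJUBA had lower values in both resistant libraries, and the other 3 had fold changes near 1. AJUBA encodes a LIM domain scaffold protein that binds LATS kinases and restrains them. It had 40.6 and 77.8 CPM in resistant replicates 1 and 2, against 164 and 128 CPM in control replicates 1 and 2, with no overlap. AJUBA (ENSG00000129474.16, chromosome 14, 22971177 to 22982551) had a log2 fold change of -1.30 ± 0.30 (SE, n = 2 per group), 2.46-fold lower in resistant cells (edgeR adjusted p = 0.101, unadjusted p = 0.00293; interval -2.00 to -0.59). In DESeq2, AJUBA fell (log2 -1.28, adjusted p = 9.28e-04). With 1 library left out its log2 fold change stayed between -1.84 (resistant replicate 2 left out) and -0.90 (resistant replicate 1 left out), and in those fits AJUBA did not pass (edgeR adjusted p = 0.094 and 0.221). It passed with either control left out, the fits in which 829 and 2166 genes passed in all.

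LATS2, the kinase that phosphorylates YAP and is itself induced by it, had 42.6 and 50.3 CPM in resistant cells and 39.3 and 46.0 CPM in controls. The groups overlapped, and the log2 fold change was 0.12 ± 0.18 (SE; adjusted p = 0.847; interval -0.30 to 0.54). AMOTL1 and AMOTL2 encode angiomotin-like proteins of cell junctions that bind YAP in the cytoplasm. AMOTL1 had 234 and 236 CPM in resistant cells against 197 and 240 CPM in controls, a log2 fold change of 0.11 ± 0.18 (SE; adjusted p = 0.869; interval -0.31 to 0.52). It was the target gene with the smallest difference between the resistant libraries. AMOTL2 had 290 and 436 CPM in resistant cells against 453 and 405 CPM in controls, again with resistant replicate 2 between the controls. Its log2 fold change was -0.24 ± 0.23 (SE; adjusted p = 0.726; interval -0.76 to 0.28), and 0.03 without resistant replicate 1. For LATS2, AMOTL1 and AMOTL2, and also for CCN2 and FJX1, the intervals exclude a 2-fold change in either direction.

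ANKRD1 encodes an ankyrin repeat protein known from heart muscle, found both in the nucleus and in the sarcomere. It differed more within groups than between them. Its counts were 225 and 3445 in resistant replicates 1 and 2 and 3572 and 1542 in control replicates 1 and 2. Scaled, ANKRD1 had 3.17 and 41.7 CPM in resistant cells against 49.9 and 17.8 CPM in controls. The fitted log2 fold change was -0.59 ± 0.94 (SE; adjusted p = 0.861; interval -2.77 to 1.58). With resistant replicate 2 left out it was -3.41, but it was 0.31 with resistant replicate 1 left out and 0.34 with control replicate 1 left out. No direction can therefore be given for ANKRD1 from these libraries.

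**Figure D2:**
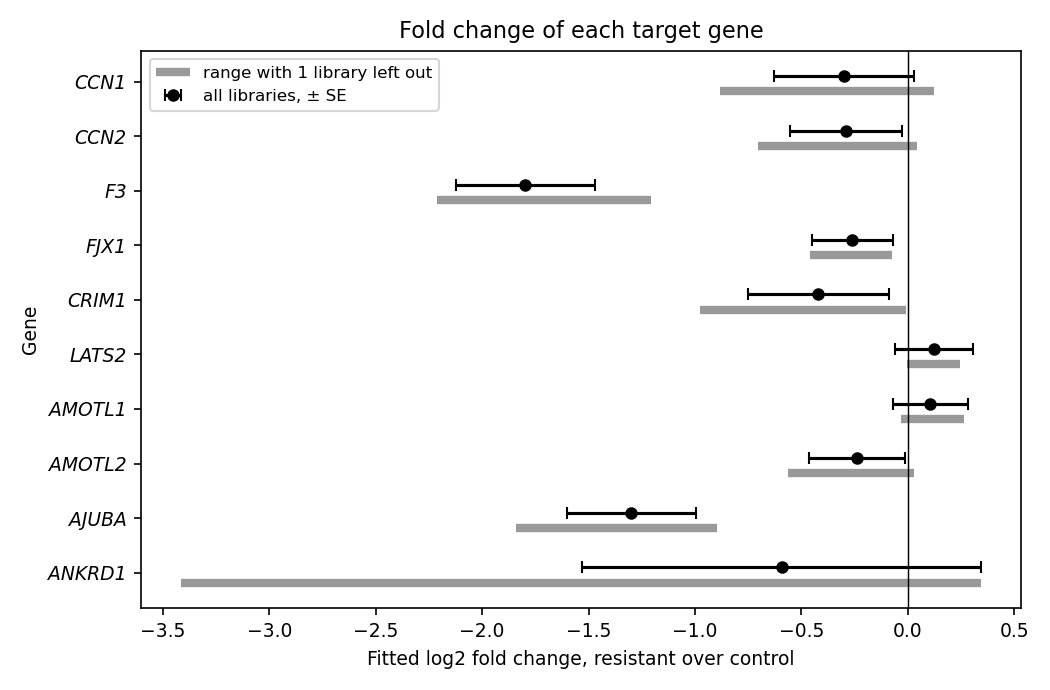
Fitted log2 fold change, resistant over control, of each target gene (point, with SE bars), and below it in grey the range of the value when each library in turn is left out. F3 and AJUBA are the 2 genes furthest below 0 and remain below it in each of these fits, and the ranges of CCN1, CCN2, LATS2, AMOTL1, AMOTL2 and ANKRD1 cross 0.

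The resistant libraries differed from each other in the target genes. All 10 were higher in resistant replicate 2 than in resistant replicate 1, where 50.3% of all tested genes and 62.9% of genes averaging at least 10 CPM were. The excess for AMOTL1 was 1.01-fold and turned to 0.937-fold when libraries were scaled to their totals alone. The median log2 ratio of resistant replicate 2 to resistant replicate 1, on CPM plus 0.5, was 0.66 for the 10 genes and 0.08 for the 10089 genes averaging at least 10 CPM. ANKRD1 was 13.2-fold higher in resistant replicate 2, and its log2 difference on CPM plus 0.5, at 3.52, ranked 1 in size among those 10089 genes. The ratio was 2.00-fold for CCN1 (rank 90), 1.95-fold for CRIM1 (rank 105), 1.92-fold for AJUBA (rank 124), 1.67-fold for CCN2 (rank 282), and the log2 ratio was 0.59 for AMOTL2 (rank 554). FJX1 ranked 1908, F3 3420, LATS2 3921 and AMOTL1 9693. For 5 genes (CCN1, CCN2, ANKRD1, AMOTL2 and CRIM1) resistant replicate 1 was below both controls and resistant replicate 2 between them, an order that 7.27% of all tested genes and 9.32% of those averaging at least 10 CPM had. The labels give no difference between the resistant libraries, and its source was not tested.

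The control libraries differed too, by less for most of the genes. Control replicate 1 was above control replicate 2 for 8 of the 10, where 48.8% of all tested genes and 55.6% of those averaging at least 10 CPM were. LATS2 and AMOTL1 were the exceptions. The ratio was 2.80-fold for ANKRD1, 2.01-fold for F3 and 1.45-fold for CCN1, and the log2 ratio was 0.59 for CRIM1. For F3 and AMOTL1 the controls differed more than the resistant libraries did.

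**Figure D3:**
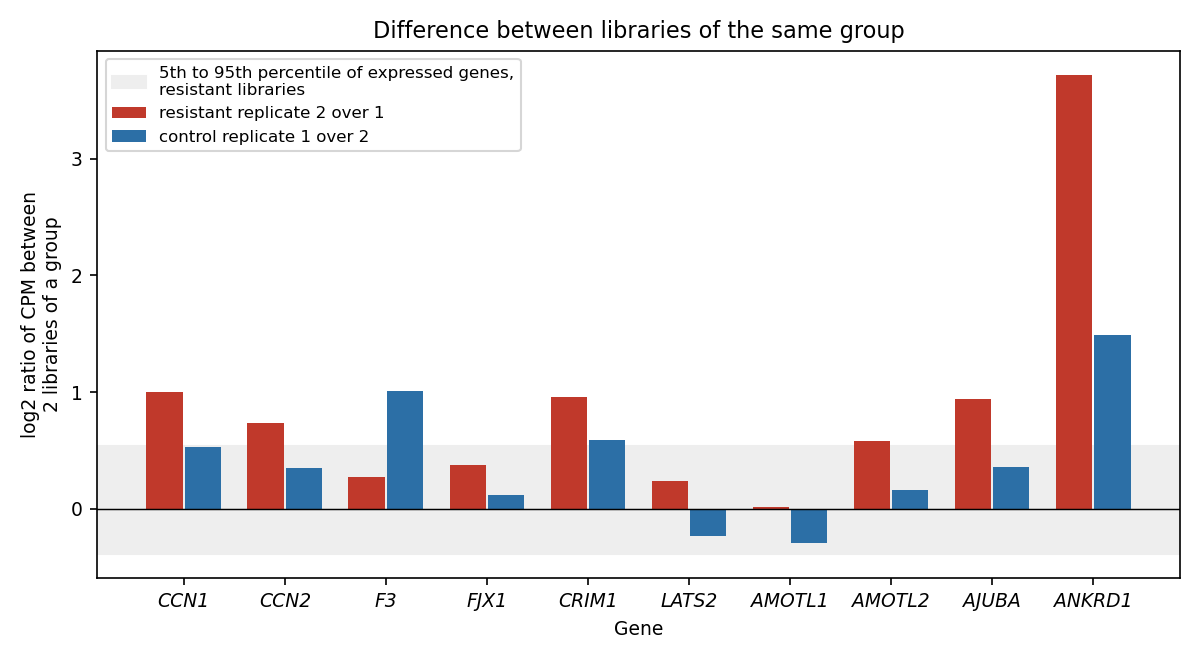
log2 ratio of CPM between the libraries of a group, resistant replicate 2 over 1 in red and control replicate 1 over 2 in blue, for each target gene, with a grey band from the 5th to the 95th percentile of the resistant ratio, on CPM plus 0.5, over 10089 genes averaging at least 10 CPM. ANKRD1 stands far above the band, and CCN1, CCN2, CRIM1, AMOTL2 and AJUBA stand above it by less.

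Levels were compared between genes as CPM per kilobase of exon. In resistant cells the mean levels ran from CCN1 (118), CCN2 (78.7), AMOTL2 (56.0) and CRIM1 (45.9) through AMOTL1 (23.5), FJX1 (14.1), ANKRD1 (12.5) and AJUBA (10.1) to LATS2 (8.28) and F3 (4.07). In control cells the same 4 genes led in the same order, with CCN1 at 145, CCN2 at 96.3, AMOTL2 at 66.2 and CRIM1 at 61.4 CPM per kilobase. AJUBA followed at 24.8, then AMOTL1 at 21.8, ANKRD1 at 18.9, FJX1 at 16.9, F3 at 14.1 and LATS2 at 7.60 CPM per kilobase. Neighbours in the resistant order overlapped between libraries except at the steps from CRIM1 to AMOTL1, from AMOTL1 to FJX1 and from LATS2 to F3. In controls the steps from CCN1 to CCN2, from CCN2 to AMOTL2, from CRIM1 to AJUBA and from F3 to LATS2 were free of overlap. F3 stood lowest in resistant cells and above LATS2 in controls.

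Other genes of the pathway were taken from 3 lists, of 28 upstream regulators, 10 YAP, TAZ, TEAD and VGLL genes, and 14 further targets from a published pan-cancer YAP and TAZ signature. None of the 51 tested genes passed edgeR over all genes. An unadjusted edgeR p under 0.05 was found for 15 (12 lower and 3 higher), where 13.5% of all tested genes had one (1828 lower and 1532 higher). Among the 10089 genes averaging at least 10 CPM, 953 were lower and 594 higher at that cut-off. DESeq2 called 3 lower and 1 higher, where it called 4.99% of all genes in either direction. YAP1 itself had 111 and 140 CPM in resistant cells against 153 and 141 CPM in controls, a log2 fold change of -0.23 ± 0.18 (SE; adjusted p = 0.661). WWTR1, the gene of TAZ, had 364 and 410 CPM in resistant cells against 520 and 439 CPM in controls (log2 -0.31 ± 0.18, edgeR adjusted p = 0.535). Both were lower in each resistant library than in each control, as were 22.2% of all tested genes, by amounts that the test does not separate from the spread. For YAP1 the log2 ratio of resistant replicate 2 to control replicate 2 was only -0.02. Of the exonic bases of YAP1 and WWTR1, 10.1% and 9.05% are shared with genes on the opposite strand.

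The TEAD genes, which encode the DNA-binding partners, had log2 fold changes of -0.18 for TEAD1, -0.28 for TEAD2, 0.23 for TEAD3 and 0.01 for TEAD4 (edgeR adjusted p from 0.631 to 0.989). TEAD4 turned to -0.06 without control replicate 1 and to -0.35 without resistant replicate 2. VGLL3 encodes a cofactor that competes with YAP for TEAD factors. It had 2.34 and 3.33 CPM in resistant cells against 11.9 and 7.15 CPM in controls, a log2 fold change of -1.75 ± 0.34 (SE; adjusted p = 0.0617), and fell in DESeq2 (adjusted p = 3.64e-05). VGLL4, a repressor of TEAD activity named after its values were seen, had 31.24 and 26.97 CPM in resistant cells against 48.4 and 48.9 CPM in controls (log2 -0.74, edgeR adjusted p = 0.0993; DESeq2 adjusted p = 0.0249). Of the exonic bases of VGLL4, 23.8% are shared with genes on the opposite strand. Of the 12 lower genes counted above, 5 (RASSF1, LIMD1, RBMS3, VGLL3 and VGLL4) lie on chromosome 3 between 0 and 100 Mb, where 279 of 287 genes averaging at least 10 CPM had a negative fold change (median log2 -0.61, against -0.003 elsewhere). The other 7 lie elsewhere, and none of the 10 target genes lies in that segment.

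Of the 28 upstream regulators, 16 had a negative fold change and the list median was -0.11. NF2, which encodes the tumour suppressor merlin that activates LATS kinases at the membrane, had the lowest fold change. It had 106 and 148 CPM in resistant cells against 348 and 233 CPM in controls, a log2 fold change of -1.19 ± 0.25 (SE; adjusted p = 0.0789), and fell in DESeq2 (adjusted p = 5.44e-04). With 1 library left out its log2 value ran from -1.45 to -0.87. TNIK, a kinase gene of the MAP4K family, had the highest, with 14.1 and 14.2 CPM in resistant cells against 8.86 and 8.36 CPM in controls (log2 0.71 ± 0.20, edgeR adjusted p = 0.164). LATS1 had a log2 fold change of 0.20 ± 0.17 (SE; adjusted p = 0.696).

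The 14 further targets had a median log2 fold change of -0.32, with 9 negative. IGFBP3, which encodes a binding protein of insulin-like growth factors, went the other way, with 710 and 481 CPM in resistant cells against 182 and 328 CPM in controls (log2 1.22 ± 0.31, edgeR adjusted p = 0.126), and it rose in DESeq2 (adjusted p = 0.00135). With 1 library left out its log2 value ran from 0.86 to 1.71. CCDC80, a matrix protein gene, was lowest at -0.95 ± 0.39 (SE; adjusted p = 0.341), with 8.13 and 10.3 CPM in resistant cells against 25.2 and 10.5 CPM in controls. That value rests on control replicate 1: it was -0.18 once that library was left out and -1.44 once control replicate 2 was. AXL, a receptor tyrosine kinase gene, had 604 and 1252 CPM in resistant cells against 1101 and 1475 CPM in controls (log2 -0.47, edgeR adjusted p = 0.619), and the log2 value was -0.03 once resistant replicate 1 was left out and -1.09 once resistant replicate 2 was. As for CCN1, resistant replicate 2 lay between the controls and resistant replicate 1 below both. Only 2 of the 14 further targets had this order, beside 7.27% of all tested genes and 9.32% of those averaging at least 10 CPM. In 12 of the 14 further targets resistant replicate 2 was above resistant replicate 1, with a median log2 ratio of 0.24 on CPM plus 0.5. That order held for 50.3% of all tested genes. It held for 62.9% of genes averaging at least 10 CPM, whose median log2 ratio was 0.08.

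**Figure D4:**
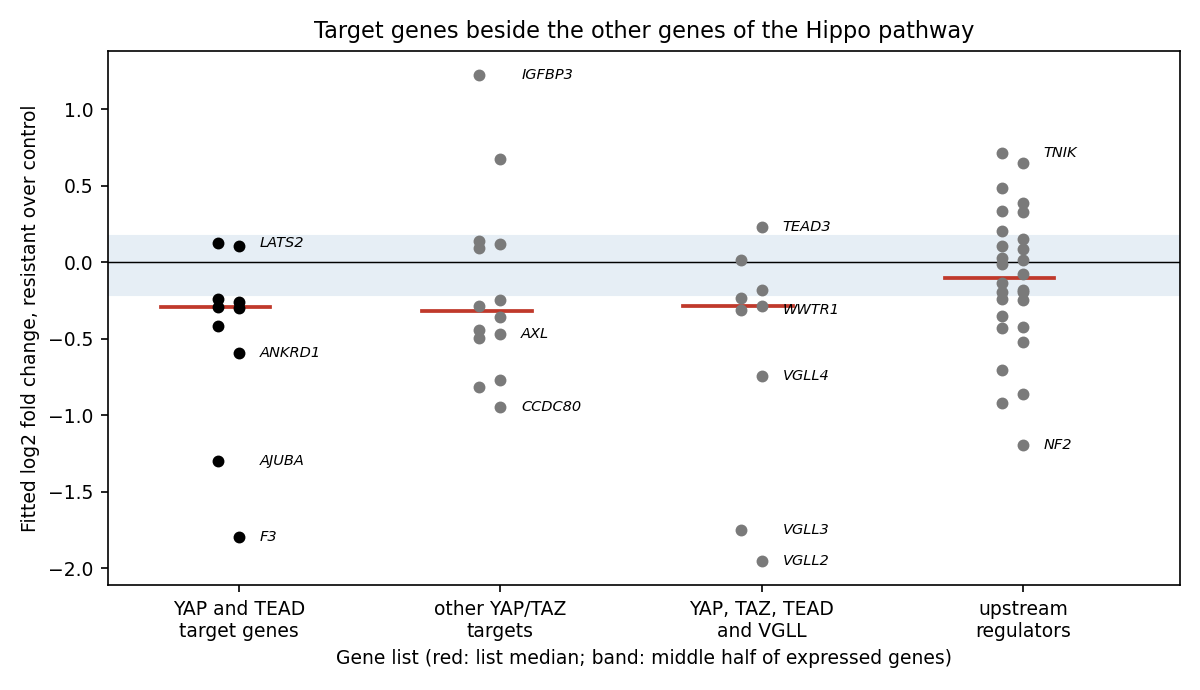
Fitted log2 fold change, resistant over control, of each tested gene in the 4 lists (points), with the list median in red and a band for the middle 50% of single genes averaging at least 10 CPM, against which points and not medians are to be read. The medians are -0.30 for the 10 target genes (0.04 once resistant replicate 1 was left out), -0.32 for the further targets, -0.28 for the YAP, TAZ, TEAD and VGLL genes and -0.11 for the upstream regulators.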

How the data were processed

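Raw counts per gene were deposited by the authors, 1 table per library, for 2 libraries of vemurafenib-resistant and 2 of parental A375 cells (polyA-selected, strand-specific, paired-end, per the labels' protocols). Per the file headers, featureCounts 2.0.0 was run on duplicate-marked alignments with GENCODE release 42 and no further options, so that by its defaults strand was ignored, mates were counted singly, and reads shared by overlapping genes were dropped. STAR, DESeq2 and GRCh38 are named in the submitters' processing notes. A further deposited table by the authors holds log2-scale fold changes with no header and entered no test.

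Of 62649 identifiers, 62625 matched a symbol. Genes passing edgeR's filterByExpr (24961) received TMM factors; the test was the quasi-likelihood F test of edgeR with group as sole term, two-sided, Benjamini-Hochberg adjusted, threshold 0.05 (R 4.3.3, edgeR 4.0.16, limma 3.58.1). DESeq2 1.42.0, other scalings and filters, and fits with a library left out were alternatives. The fit was tested on simulated data with known fold changes. SE is the fold change divided by the root of F, and 95% intervals use the fit's t distribution. Replicates of a group were distinct libraries, since their counts gave a chi-square of 63.1 (resistant) and 118 (control) for each degree of freedom. Ratios compared over all genes used CPM plus 0.5. Intervals cover the spread between libraries, and a count of 3 corresponds to at most 0.0441 CPM.

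The 10 genes, the lists and the settings were chosen with earlier results of these data known. Text names all 10, and in each pathway list the genes past the threshold, the highest and lowest fold change at a mean of at least 5 CPM, and YAP1, WWTR1, TEAD1 to TEAD4, LATS1, NF2 and AXL. A gene among the widest differences between libraries is not reported here.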

Additional observations from a re-analysis of the deposited data

How the results depend on the processing

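The count of target genes past the threshold, 0 in the fit reported, was 1 with RLE scaling (F3), 1 with the counts of control replicate 1 halved (F3), 2 with DESeq2 and 2 with no filter on low counts (F3 and AJUBA), and 0 with library totals alone, with a filter at a mean of 1 CPM and with the replicate block. It was 0 to 2 with 1 library left out. Over all genes 272 passed, against 1866 with no filter, 176 with a mean of at least 1 CPM, 1222 with DESeq2, and 16 to 2166 with 1 library left out. In those fits the lone library is assumed to vary like the other group, so the estimate of spread moves as well. The other pathway genes past the threshold, 0 in the fit reported, were 4 with DESeq2, 10 with no filter and 0 to 11 with 1 library left out. The cause of these differences was not tested. The median log2 fold change of the 10 genes was -0.79 to 0.036 with 1 library left out.

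Leaving out 1 library at a time, log2 values crossed 0 for CCN1 (-0.88 to 0.12), CCN2 (-0.71 to 0.041), AMOTL2 (-0.56 to 0.031), ANKRD1 (-3.41 to 0.34), AMOTL1 (-0.030 to 0.26), LATS2 (-0.0017 to 0.25) and TEAD4 (-0.35 to 0.31). The sign turned without resistant replicate 1 for CCN1, CCN2, AMOTL2 and ANKRD1 (0.31), without control replicate 1 for ANKRD1, AMOTL1 and TEAD4 (-0.06), and without resistant replicate 2 for LATS2 and TEAD4. F3, AJUBA, FJX1 and CRIM1 kept a negative sign in all 11 alternatives. The replicate numbers mark no shared culture, and the deviations of same-numbered libraries had a correlation of 0.002 across genes. With the replicate block 64 genes passed and TEAD4 turned to -0.020. Mates were counted singly, so independent fragments are fewer than the counts, and ANKRD1 in resistant replicate 1 rests on 225 of them at most.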

Other observations

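Beside ANKRD1, the genes with the widest difference between the resistant libraries, among 10089 genes averaging at least 10 CPM, were named after their values were seen. HMOX1, which encodes haem oxygenase, was next, with 120 and 13.4 CPM in resistant replicates 1 and 2 against 12.9 and 10.6 CPM in control replicates 1 and 2. The heat shock gene HSPA1A had 92.6 and 13.4 CPM in resistant cells against 23.03 and 14.78 CPM in controls, and HSPA1B 72.9 and 14.8 CPM against 18.8 and 13.2 CPM. HMOX1, HSPA1A and HSPA1B were each higher in resistant replicate 1 than in any other library. The cytokine gene IL1B had 198 and 51.9 CPM in resistant cells and 109 and 220 CPM in controls. GDF15 went the other way between the resistant libraries, with 240 and 873 CPM against 30.0 and 85.1 CPM in controls. MYEOV, MARCHF4 and HKDC1 were also among the 10 widest, each higher in resistant replicate 2. Whether these differences share a source was not tested.

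The authors' deposited table of 1533 symbols and fold changes names neither its comparison nor its log base. Of the 10 target genes it lists AJUBA at -1.30 and F3 at -1.77, and not the other 8. Over the 1394 of its symbols that matched 1 tested gene, the values in the authors' deposited table differed from the fitted log2 fold changes, resistant over control, by a median size of 0.026, and 1392 had the same sign. It also lists 8 of the other pathway genes, among them NF2 at -1.21, VGLL3 at -2.01, VGLL4 at -0.75 and TNIK at 0.77 in the authors' deposited table. The rule by which its genes were chosen is not given in the sources used here.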
